A study of Bos taurus with 27 samples.

Results

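The genes described here are the heavy chain of immunoglobulin E (IGHE), the receptors that bind IgE (FCER2, FCER1A and MS4A2) and 3 genes of mast cells (CPA3, KIT and HDC). Members were taken by gene symbol, and the genes were selected on their values over the 9 groups and over the single arrays, so their levels and differences are given as a description with no test. Of the 7 listed genes, 6 had a probe, with 9 probes in all, out of 14495 named genes and 45220 probes on the array. MS4A2, the beta chain of the high-affinity IgE receptor, was not analysed here.

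RNA from biopsies of the superficial cervical lymph node of cattle was hybridised on 27 two-colour arrays, 1 per sample, against a common pool of the same kind of node. The breeds were Bonsmara, Brahman and Holstein-Friesian, and each was sampled at baseline with no tick attached, with feeding larvae and with feeding adults of the cattle tick Rhipicephalus microplus, and each of the 9 groups holds 3 biological replicates. The comparisons ask what changes in the node from stage to stage, and where breeds differ. The labels give no age, no feeding time and no word on whether the stages of a breed share animals, and with 0 uninfested arrays at the later stages, effects of tick feeding and of time or age cannot be told apart.

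IgE is made by B cells and plasma cells that have switched their heavy chain to the epsilon constant region, a switch driven in mammals by IL4 and IL13. Most IgE is held on mast cells and basophils by the high-affinity receptor, whose alpha chain FCER1A binds it and whose crosslinking releases histamine and proteases, while the low-affinity receptor FCER2 (CD23) sits on B cells and follicular dendritic cells. IgE and mast cells also take part in immune responses to worms and to biting ectoparasites such as ticks.

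Every level below is a log2 ratio of a sample to the lymph node pool, likely sample over pool, so that a difference of 1 is a doubling if base and direction are as taken. If the direction were the opposite, higher and lower would change places throughout. A ratio to a pool of the same tissue gives no level of one gene against another, so the labelled tissue could not be checked against its defining markers. In tissue samples, fewer cells of a type and less RNA per cell cannot be told apart. Over all features, the mean correlation of an array with the others of its group was lowest, at -0.085, for Holstein-Friesian larva replicate 3 (so named by its label), and the members' larva differences are given with and without it. An earlier account of these data placed it and Bonsmara larva replicate 3 nearer another breed than their own. The number of arrays limits the precision of every value.

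IGHE was highest while adult ticks fed, in all 3 breeds. Its 1 probe, designed on the cattle IgE heavy chain record AY221098, had an SD of 2.25 over the 27 arrays, rank 3 of 28927 features, whose median SD was 0.212. In Bonsmara nodes IGHE stood at -1.07, -0.91 and -2.95 at baseline, at -3.97, -0.21 and -4.40 with larvae and at 0.02, 1.59 and 0.64 with adults. All 3 Bonsmara adult arrays lay above the baseline and larva arrays of the breed, and 2 of the larva arrays were the lowest. In Brahman nodes it stood at -1.85, -1.62 and -1.37 at baseline, at -5.32, -2.14 and -3.35 with larvae and at 2.17, 2.00 and 1.36 with adults. The 3 Brahman stages did not overlap at all, with larvae lowest and adults highest. In Holstein-Friesian nodes it stood at -2.33, -2.87 and -3.64 at baseline, at -4.86, -3.44 and 2.44 with larvae and at -0.12, 0.02 and 0.22 with adults. The adult arrays were again above all baseline arrays, but the larva arrays ran from the second lowest to the highest of the 27, and the highest was replicate 3, the array that stands apart.

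**Figure D1:**
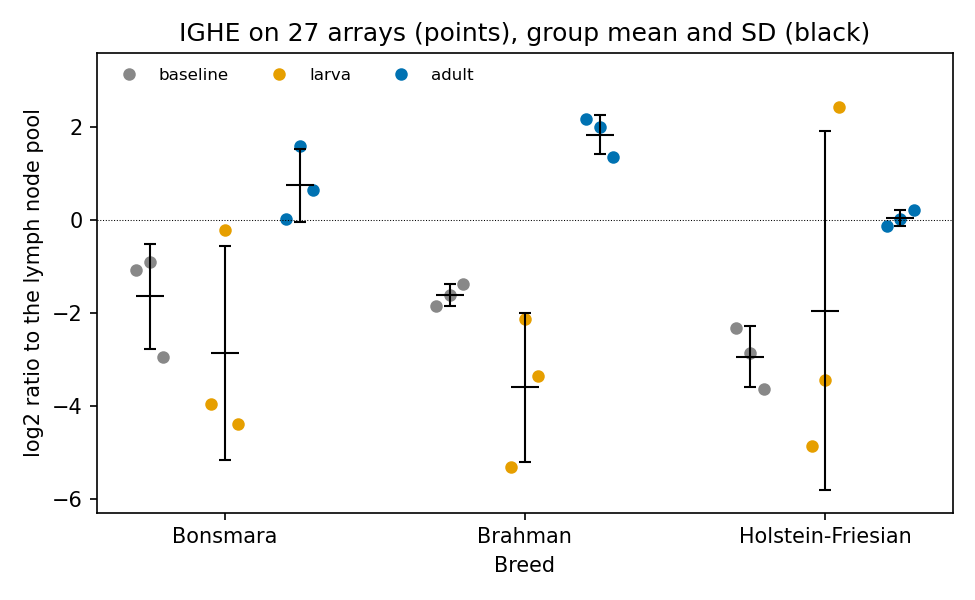
IGHE as the log2 ratio to the lymph node pool (y axis) on each of the 27 arrays (points), by breed (x axis) and stage (colour); black bars are the group mean and SD over 3 arrays. The adult arrays lie between -0.12 and 2.17, above every baseline array, and 1 Holstein-Friesian larva array lies at 2.44, far above the other larva arrays.

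Over the breeds, the 9 adult arrays averaged 0.88 ± 0.91 (SD), and the 9 baseline arrays -2.07 ± 0.94. Every adult array (lowest -0.12) was above every baseline array (highest -0.91), which was so for 0.0553% of all features. The mean of the within-breed differences, adult minus baseline, was 2.95 (SE 0.721), a 7.7-fold difference and the largest positive one of the 28927 features, whose median difference was -0.02. The larva arrays had a median of -3.44, lower than the baseline median of -1.85. Of the 9, 6 lay below all baseline arrays of their own breed while 2 lay above them. How many of all features reach such counts is not given here. Larva minus baseline was -0.74 (SE 0.721), about the size of its SE. Leaving out Holstein-Friesian larva replicate 3 made it -1.47 and leaving out replicate 1 of that group made it -0.25, so its size rests on single arrays. Adult minus larva was 3.68 (SE 0.721), or 12.8-fold, again the largest of all features, and 4.42 without that array. Without it every adult array was also above every larva array (highest -0.21), which was so for 0.0449% of all features.

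Within breeds, adult minus baseline was 2.39 in Bonsmara, 3.46 in Brahman and 2.99 in Holstein-Friesian (SE 1.248 each). Adult minus larva was 3.61, 5.44 and 2.00 in the same order of breeds, and 4.19 in Holstein-Friesian without replicate 3. Larva minus baseline was -1.22 in Bonsmara, -1.99 in Brahman and 0.99 in Holstein-Friesian, and without replicate 3 the Holstein-Friesian difference was -1.21 (2.45 without replicate 1). The Bonsmara larva difference was -0.45 without larva replicate 3, also placed nearer another breed, and -2.54 without larva replicate 2. In Brahman it was -1.13 without larva replicate 1, and -2.72 without larva replicate 2. The SE comes from a spread shared by all groups, while the SD of single groups ran from 0.17 in Holstein-Friesian adult to 3.87 in Holstein-Friesian larva nodes. Ordered by mean level, the groups were Brahman adult (1.84), Bonsmara adult (0.75), Holstein-Friesian adult (0.04), Brahman baseline (-1.61), Bonsmara baseline (-1.65), Holstein-Friesian larva (-1.95), Bonsmara larva (-2.86), Holstein-Friesian baseline (-2.94) and Brahman larva (-3.60). Between neighbours in that order, only Holstein-Friesian adult and Brahman baseline had arrays that did not overlap.

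The mean of IGHE was higher in Brahman than in Holstein-Friesian nodes by 1.33 at baseline and by 1.80 with adults, where the SE was 1.248. The arrays did not overlap at either stage, which was so in either direction for 11.2% and 17% of all features. Bonsmara was higher than Holstein-Friesian by 1.30 at baseline and 0.71 with adults, and Brahman higher than Bonsmara by 0.03 and 1.09, each with overlapping arrays. With larvae, the arrays of all breed pairs overlapped.

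Unlike IGHE, the IgG heavy chain and plasma cell genes were highest with larvae in the mean over breeds; whether the courses differ was not tested. IgCgamma, the constant region of the IgG heavy chain, stood at 0.96, 1.34 and -0.80 in Bonsmara larva nodes. At baseline it stood at -2.07, -2.42 and -2.67 there, with no overlap (26.6% of all features), and with adults at -1.59, -0.97 and -0.77. In Brahman it stood at -1.84, 0.64 and -0.48 with larvae against 0.23, -2.35 and -1.38 at baseline. In Holstein-Friesian it stood at 1.33, 1.06 and -0.42 against -1.95, -2.31 and -0.21. In both of these breeds the larva and baseline arrays overlapped. In limma's test with Benjamini-Hochberg adjustment over all features, IgCgamma rose by 1.88 (SE 0.405, adjusted p = 0.0197) with larvae over the 3 breeds. Its adult minus baseline difference was 0.28 (adjusted p = 0.815) and its adult minus larva difference -1.60 (adjusted p = 0.105). JCHAIN, the chain that joins secreted IgA and IgM, rose by 1.56 with larvae (SE 0.381, adjusted p = 0.0433), and its adult minus baseline difference was 0.43 (adjusted p = 0.674). Of 4 measured immunoglobulin genes other than IGHE, out of 17 listed, 2 rose with larvae, where 1.21% of all features were called. IGHG1 (0.40, adjusted p = 0.668) and LOC789205, which the array lists as IGLL1 (0.62, adjusted p = 0.202), did not pass. In Brahman nodes the mean of IGHG1 was lowest with larvae, at -0.498, against -0.309 at baseline and -0.196 with adults. The call of IgCgamma was lost without Brahman larva replicate 2, Holstein-Friesian baseline replicate 1 or Holstein-Friesian larva replicate 1, and that of JCHAIN without any 1 of 20 arrays (differences of 1.32 to 1.82 over all 27 omissions). On Holstein-Friesian larva replicate 3, where IGHE was at 2.44, IgCgamma was at -0.42 and JCHAIN at -0.58, the lowest of their group. On Holstein-Friesian larva replicate 1, IGHE was at -4.86, IgCgamma at 1.33 and JCHAIN at 2.42. Other larva arrays ran the other way: on Bonsmara larva replicate 2, IGHE (-0.21), IgCgamma (1.34) and JCHAIN (1.60) were each the highest of their group, and on Brahman larva replicate 1, IGHE (-5.32) and IgCgamma (-1.84) were the lowest of theirs. Over the 27 arrays, which share the pool and the normalization, IGHE had a Pearson r of -0.222 with IgCgamma and -0.305 with JCHAIN, and between deviations from group means r was -0.015 and -0.218.

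Among 12 measured regulators of plasma cells, 5 rose with larvae and 0 fell, where 1.21% of all features were called. IRF4, a transcription factor of plasma cell formation, rose by 1.05 (SE 0.183, adjusted p = 0.00397) and TNFRSF13B, the receptor TACI, by 0.57. CREB3L2, a transcription factor of the secretory pathway, rose by 0.65. TXNDC5, a protein disulfide isomerase, rose by 1.31, and MZB1, a chaperone of immunoglobulin, by 1.48 (adjusted p = 0.0398). MZB1 was lost without any 1 of 16 arrays and TXNDC5 without Holstein-Friesian larva replicate 1. The calls of IgCgamma, JCHAIN, MZB1, TXNDC5 and CREB3L2 were also lost when arrays were scaled to one interquartile range or when only the groups compared were fitted. With adults, 0 of the 12 passed against baseline, with a median difference of 0.29 and TNFRSF13B at 0.28 (adjusted p = 0.322). The median of this list per array ran from -0.312 to 0.057 with adults and from -0.649 to 0.109 at baseline, so the adult arrays overlapped with the baseline arrays in plasma cell genes. Its part in the IGHE differences was not tested.

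Over all lists, 170 related genes were measured, and the share of all features called is the background for each count. The lists were chosen with earlier results of these data known. Counts and adjusted p-values of listed genes are therefore a description throughout, and no independent evidence. For larva minus baseline over the breeds, 11 of the 170 rose and 1 fell, where 1.21% of all features were called. Of these 12, 4 were genes of capsule and connective tissue: the collagens COL1A1, COL1A2 and COL3A1, up by 1.99 (SE 0.274, adjusted p = 6.19e-04), 1.5 and 1.61, and DES, the muscle filament desmin, up by 0.63. The median of the 10 connective tissue genes per array ran from -0.234 to 0.851 with larvae and from -0.721 to -0.227 at baseline, and its part in the larva differences was not tested. For adult minus baseline, 0 of the 170 passed in limma, against 0.0346% of all features. At an unadjusted p under 0.05 there were 37. No share of all features is given here for this or the other unadjusted counts, so they have no background. For adult minus larva, 1 passed, against 0.232%. In Bonsmara, 8 rose and 1 fell with larvae against baseline (1.11% of all features), namely IgCgamma, IRF4, CREB3L2, CD79A of the B cell receptor, the 3 collagens and DES, with LCP2 lower. DES was kept on leaving out any 1 array, COL1A1 was lost without Bonsmara larva replicate 3, and each of the other 7 was lost without any 1 of 3 to 19 arrays. In all the other stage comparisons within a breed, 0 of the 170 passed, with 13 to 27 at an unadjusted p under 0.05. The shares of all features called there were 0.0311% and 0.0484% for Bonsmara adult against baseline and against larva. For Brahman they were 0% for larva against baseline, 0% for adult against baseline and 0.00346% for adult against larva, and for Holstein-Friesian 0.00346%, 0% and 0.00346%.

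**Figure D2:**
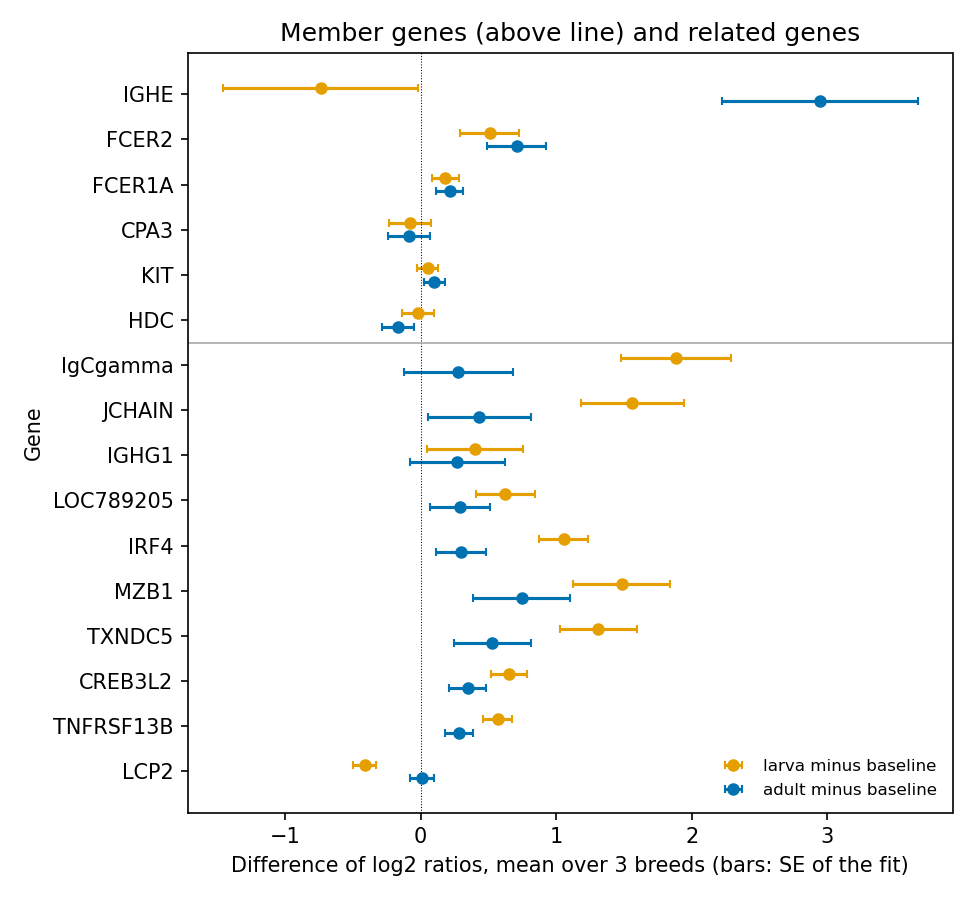
Differences of log2 ratios (x axis), mean of the within-breed differences over 3 breeds with the SE of the fit as bars, for the 6 member genes (above the line) and for immunoglobulin, plasma cell and receptor signalling genes (y axis), larva minus baseline in orange and adult minus baseline in blue. IGHE is 2.95 with adults and -0.74 with larvae, while IgCgamma is 0.28 with adults and 1.88 with larvae.

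The genes whose course over the 27 arrays was most like that of IGHE, by Pearson r among 14018 named genes, were ACVR1B (0.809), TSR2 (0.772), CFLAR (0.768), DUSP7 (0.744) and STK19 (0.734). ACVR1B is an activin type I receptor, CFLAR an inhibitor of death receptor signalling and DUSP7 a phosphatase of MAP kinases. Without Holstein-Friesian larva replicate 3, r was between 0.698 and 0.783 for these 5. Within groups, r of the deviations from the 9 group means was between 0.501 and 0.702. ACVR1B differed by 1.03 for adult minus baseline and by 0.20 for larva minus baseline, and its values ran from -1.02 to 1.12.

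FCER2, the low-affinity IgE receptor CD23, was higher with larvae and with adults than at baseline in the mean over breeds. Only in Bonsmara was this without overlap of arrays. In Bonsmara nodes the mean of its 2 probes stood at -0.94, -0.88 and -0.79 at baseline, at 0.26, 0.14 and -0.31 with larvae and at 0.37, 0.38 and -0.08 with adults. The infested arrays of Bonsmara all lay above its baseline arrays, and the larva and adult arrays overlapped. In this breed 26.6% of all features were apart from baseline with larvae and 22.5% with adults, in either direction. In Brahman nodes it stood at -0.73, -0.59 and 0.17 at baseline, at -0.75, 0.50 and 0.04 with larvae and at 0.22, 0.59 and -0.65 with adults. In Holstein-Friesian nodes it stood at -0.09, -0.65 and -0.73 at baseline, at -1.10, 0.06 and 0.53 with larvae and at 0.22, -0.44 and 0.55 with adults. In these breeds the 3 stages overlapped, and the lowest larva array was below every baseline array of its breed. Of 9 adult arrays 7 were above all baseline arrays of their own breed, and of 9 larva arrays 6. The share of all features that reach such counts is not given here.

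Adult minus baseline of FCER2 was 0.71 (SE 0.218) over the breeds, rank 62 of 28927 from the highest, and larva minus baseline was 0.51 (SE 0.218), or 0.39 without Holstein-Friesian larva replicate 3. Adult minus larva was 0.20, under its SE, and 0.31 without that array. Within breeds, adult minus baseline was 1.09 in Bonsmara, 0.43 in Brahman and 0.60 in Holstein-Friesian, and larva minus baseline 0.90, 0.31 and 0.32 (SE 0.378 each). The Holstein-Friesian larva difference was -0.03 without larva replicate 3 and 0.78 without larva replicate 1. The Brahman larva difference was 0.03 without larva replicate 2 and 0.65 without larva replicate 1, and the Brahman adult difference 0.16 without adult replicate 2 and 0.79 without adult replicate 3. In Bonsmara, omissions of 1 array left 0.79 to 1.07 with larvae and 1.02 to 1.25 with adults. The Bonsmara difference with adults exceeded that of Brahman by 0.66 (Brahman minus Bonsmara -0.66, SE 0.535), and Bonsmara was also the lowest of the breeds at baseline. At baseline Bonsmara was 0.38 lower than Holstein-Friesian and Brahman 0.49 higher than Bonsmara, both with no overlap of arrays (16.8% and 15.7% of all features). In the order of group means, from Bonsmara adult (0.22) to Bonsmara baseline (-0.87), only the last step, from Holstein-Friesian baseline (-0.49), was between groups whose arrays did not overlap. These values are for the mean of the 2 probes. On probe A alone, the baseline arrays of the breeds overlapped. They stood at -0.40, -0.34 and -0.17 in Bonsmara, at -0.84, -0.54 and 0.35 in Brahman and at 0.25, -0.64 and -0.09 in Holstein-Friesian. With adults, probe A stood at 0.81, 0.76 and 0.41 in Bonsmara, at 0.59, 0.86 and -0.35 in Brahman and at 0.61, -0.18 and 0.76 in Holstein-Friesian.

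**Figure D3:**
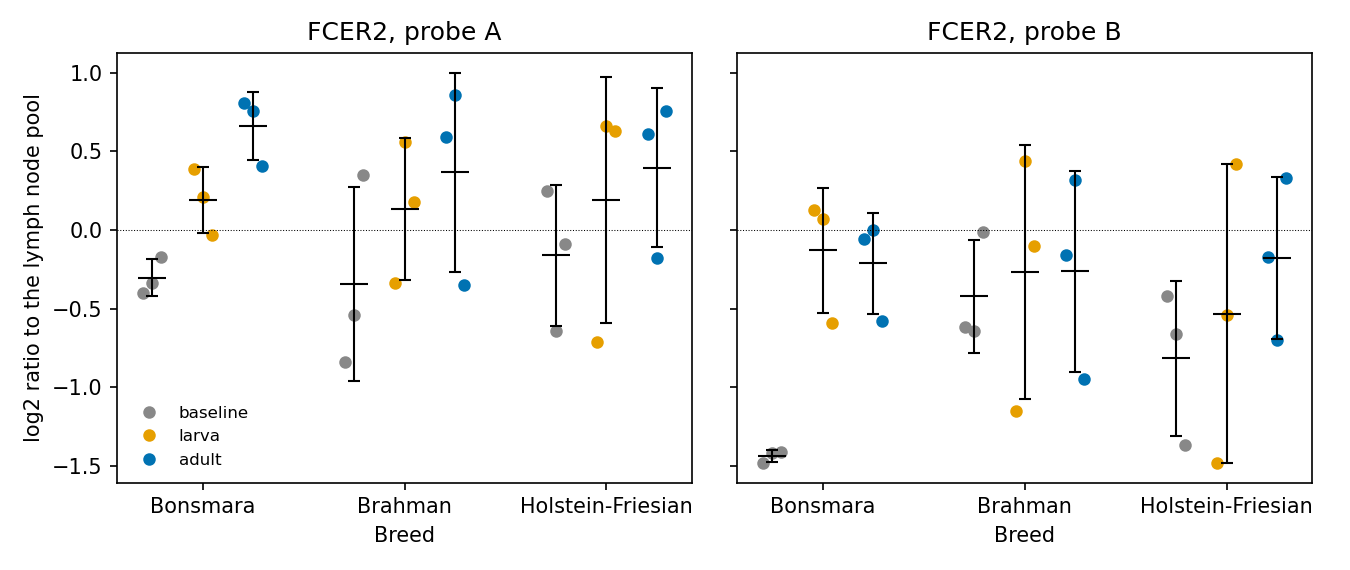
FCER2 as the log2 ratio to the lymph node pool (y axis) for each of its 2 probes (panels) on the 27 arrays (points), by breed (x axis) and stage (colour); black bars are the group mean and SD over 3 arrays. On probe B the Bonsmara baseline arrays lie between -1.48 and -1.41, and on probe A between -0.40 and -0.17.

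The 2 FCER2 probes had an r of 0.761 over the 27 arrays, with a median gap of 0.603 between them and the largest gap, 1.29, on Holstein-Friesian baseline replicate 3. The Bonsmara baseline arrays were below both infested stages on each probe. On probe A they reached -0.17, and the infested arrays went down to -0.03. On probe B they reached -1.41, and the infested arrays went down to -0.59. FCER2 had an r of 0.497 with IGHE over the arrays, and 0.595 between deviations from group means. B cell and follicular dendritic cell genes, the cells that carry FCER2, did not pass limma's test in any of the 3 comparisons over breeds (0 of 10), and their median per array ran from -0.82 to 0.032 with adults and from -0.408 to 0.278 at baseline. In Bonsmara, 1 of the 10 rose with larvae against baseline, CD79A by 0.97 (SE 0.226, adjusted p = 0.0352), where 1.11% of all features were called. CXCL13, the chemokine of follicles, was at 1.18 (adjusted p = 0.185). The median difference of the 10 genes there was 0.33 with larvae and 0.06 with adults, and the list median per array ran from -0.079 to 0.091 in Bonsmara larva nodes and from -0.408 to -0.079 at baseline. Their part in the FCER2 differences was not tested. Of 7 measured partners and sheddases of FCER2, 0 passed, with CR2, the complement receptor that binds CD23, at -0.29 (adjusted p = 0.401) and ADAM10, the protease that sheds CD23, at 0.20 (adjusted p = 0.485) for adult minus baseline. ITGB2, the beta chain of the integrins that bind CD23, was at -0.28 with larvae against baseline (adjusted p = 0.144).

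FCER1A, the IgE-binding chain of the high-affinity receptor, stayed within -0.46 to 0.44 on all arrays. In Bonsmara nodes its 1 probe stood at -0.46, 0.11 and -0.36 at baseline, at 0.14, -0.04 and 0.20 with larvae and at 0.00, 0.09 and 0.35 with adults. In Brahman nodes it stood at 0.26, 0.03 and -0.16 at baseline, at -0.07, 0.16 and -0.18 with larvae and at 0.06, 0.28 and 0.06 with adults. In Holstein-Friesian nodes it stood at -0.34, 0.02 and -0.21 at baseline, at 0.44, 0.10 and -0.23 with larvae and at 0.17, -0.15 and -0.03 with adults. The stages overlapped in every breed, and so did all neighbours in the order of group means. Over the breeds, adult minus baseline was 0.21 and larva minus baseline 0.18 (SE 0.098), or 0.24 without Holstein-Friesian larva replicate 3.

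CPA3, carboxypeptidase A3 of mast cell granules, was near the pool level on most arrays, and its 2 probes did not move together. On probe A, Bonsmara nodes stood at -0.04, -0.17 and 0.01 at baseline, at -0.09, -0.06 and -0.14 with larvae and at -0.06, 0.12 and -1.93 with adults. Brahman nodes stood at 0.12, 2.80 and -0.14 at baseline, at 0.00, 0.03 and -0.21 with larvae and at 0.00, -0.03 and 0.53 with adults. Holstein-Friesian nodes stood at -0.04, -0.34 and -0.82 at baseline, at -0.08, 0.14 and 0.08 with larvae and at -0.14, 0.03 and 0.00 with adults. A single array was high (Brahman baseline replicate 2) and a single array low (Bonsmara adult replicate 3), and on probe B these were at 0.07 and 0.02, with all 27 arrays of that probe between -0.43 and 0.40. The r between the probes was 0.127, and 0.288 without those arrays. Brahman baseline replicate 2 also had the widest spread over all features (SD 0.52) of the 27 arrays. Over the breeds, CPA3 as the mean of its probes differed by -0.09 for adult minus baseline and by -0.08 for larva minus baseline (SE 0.157). Both changed sign without Brahman baseline replicate 2, to 0.06 and 0.07, and the larva difference was -0.05 without Holstein-Friesian larva replicate 3. In Brahman, larva minus baseline was -0.53 (SE 0.271), and -0.08 without replicate 2 at baseline.

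The genes most like CPA3 over the arrays were NTM (0.892), FKBP6 (0.887), SEMA6A (0.846), CPN1 (0.825) and LONRF3 (0.822) by Pearson r. By Spearman's rho these were 0.46, 0.132, 0.317, 0.296 and 0.624, so the likeness was lower by rank for each of the 5. NTM, an adhesion molecule of neurons, ran from -2.37 to 2.23.

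KIT, the receptor of stem cell factor that mast cells need, ran from -0.40 to 0.28 as the mean of its 2 probes. In Bonsmara nodes it stood at -0.03, -0.19 and -0.13 at baseline, at -0.01, -0.19 and 0.01 with larvae and at -0.21, -0.09 and -0.06 with adults. In Brahman nodes it stood at -0.12, -0.17 and -0.40 at baseline, at 0.17, -0.27 and -0.36 with larvae and at 0.01, 0.07 and 0.25 with adults. In Holstein-Friesian nodes it stood at 0.12, 0.21 and -0.05 at baseline, at 0.17, 0.24 and -0.05 with larvae and at -0.09, 0.28 and -0.02 with adults. Brahman adult arrays were above the Brahman baseline arrays, by 0.34 (SE 0.133), with no overlap. In either direction this was so for 13.2% of all features. In the other breeds the stages overlapped. The probes had an r of 0.488. Over the breeds, adult minus baseline was 0.10 and larva minus baseline 0.05 (SE 0.077), or 0.08 without Holstein-Friesian larva replicate 3.

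HDC, the enzyme that makes histamine, ran from -0.28 to 0.76. Bonsmara nodes stood at 0.36, 0.12 and 0.72 at baseline, at 0.39, -0.03 and 0.02 with larvae and at 0.09, 0.07 and 0.25 with adults. Brahman nodes stood at 0.11, -0.10 and 0.18 at baseline, at 0.01, 0.42 and 0.15 with larvae and at 0.19, 0.00 and 0.22 with adults. Holstein-Friesian nodes stood at 0.37, 0.14 and 0.22 at baseline, at 0.76, -0.26 and 0.48 with larvae and at -0.28, -0.16 and 0.25 with adults. The stages overlapped in every breed, and adult minus baseline was -0.17 and larva minus baseline -0.02 over the breeds (SE 0.117). Leaving out Holstein-Friesian larva replicate 3 gave -0.05 for the larva difference, and leaving out replicate 2 of that group gave 0.08.

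**Figure D4:**
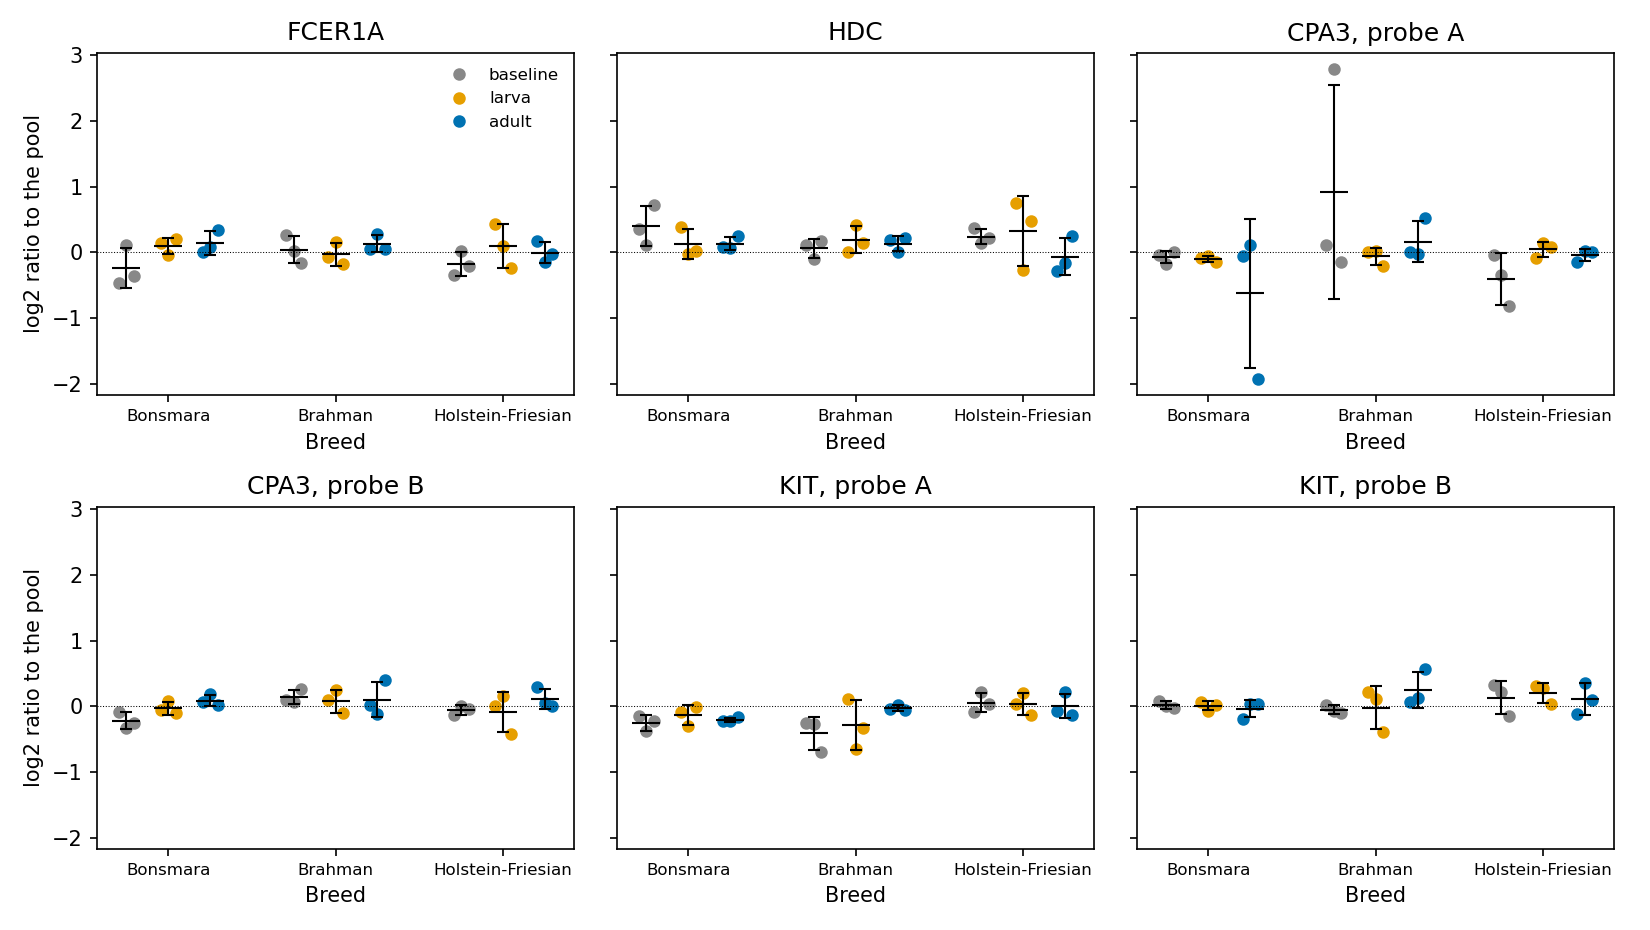
FCER1A, HDC and both probes of CPA3 and KIT as log2 ratios to the lymph node pool (y axis, the same in all panels) on the 27 arrays (points), by breed (x axis) and stage (colour); black bars are the group mean and SD over 3 arrays. Most values lie near 0, and CPA3 probe A holds 1 array at 2.80 and 1 at -1.93 that probe B does not show.

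Counts of members with no overlap between 3 and 3 arrays are given with the share of all features that had none, in either direction. With larvae against baseline, FCER2 was higher in Bonsmara (26.6% of all features) and IGHE lower in Brahman (11.2%), and in Holstein-Friesian 0 of the 6 were apart (8.59%). With adults against baseline, the members apart, all higher, were IGHE and FCER2 in Bonsmara (22.5%), IGHE and KIT in Brahman (13.2%), and IGHE and CPA3 in Holstein-Friesian (9.85%). CPA3 was apart there as the mean of its probes. On its probe B the lowest Holstein-Friesian adult array and the highest baseline array were both at 0.01 as rounded. On its probe A the Holstein-Friesian adult arrays went down to -0.14 and the baseline arrays up to -0.04. With adults against larvae, IGHE was apart and higher in Bonsmara (21.5%) and Brahman (14.1%), and 0 of 6 in Holstein-Friesian (8.61%).

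Between breeds at baseline, Brahman against Holstein-Friesian had IGHE and CPA3 higher and KIT lower with no overlap (11.2%), Bonsmara against Holstein-Friesian had FCER2 lower (16.8%), and Brahman against Bonsmara had FCER2 and CPA3 higher (15.7%). Except for IGHE, these hold for the mean of probes. On probe A, FCER2 and CPA3 overlapped in these pairs, with CPA3 down to -0.14 in Brahman and up to -0.04 in Holstein-Friesian and 0.01 in Bonsmara. On probe B, KIT overlapped, with Brahman up to 0.02 and Holstein-Friesian down to -0.15. With larvae, 0 of 6 were apart for Brahman against Holstein-Friesian (8.35%), Bonsmara against Holstein-Friesian (9.03%) and Brahman against Bonsmara (13.4%). With adults, IGHE was higher in Brahman than in Holstein-Friesian (17%), 0 were apart for Bonsmara against Holstein-Friesian (15.2%), and KIT was higher in Brahman than in Bonsmara (15.5%). Of the 170 related genes, limma called 1 in these 9 breed comparisons, FCRL4, a B cell receptor of the Fc receptor-like family, higher by 0.85 in Brahman than in Bonsmara at baseline (SE 0.16, adjusted p = 0.0326). It no longer passed when any 1 of 5 arrays was left out. The shares of all features called at baseline were 0.0207% for Brahman against Holstein-Friesian, 0.225% for Bonsmara against Holstein-Friesian and 0.152% for Brahman against Bonsmara. With larvae they were 0%, 0% and 0%, and with adults 0%, 0.00346% and 0%, for the same pairs. Differences between breeds in the stage response passed for 0 of the 170 genes in each of the 9 comparisons. At an unadjusted p under 0.05 there were 6 to 17, and no share of all features is given here for either count.

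Of 22 measured genes of mast cell identity and granules, 0 passed in the 3 comparisons over breeds, with a median difference of 0.09 for adult minus baseline and 0.00 for larva minus baseline, where the median of all features was -0.02 in both. The median of the list per array ran from -0.054 to 0.314 with adults and from -0.108 to 0.005 at baseline. TPSB2, a mast cell tryptase, differed by 0.08 with adults and 0.03 with larvae against baseline. SRGN, the granule proteoglycan serglycin, was at 0.55 (adjusted p = 0.222) and MRGPRX2, a mast cell receptor for basic peptides, at -0.28 (adjusted p = 0.251) with adults against baseline. RAB27B, of granule docking, was at -0.54 (adjusted p = 0.0857) and RGS13, a regulator of G protein signalling, at -1.23 (adjusted p = 0.195) with larvae. MITF, the mast cell and melanocyte transcription factor, was at 0.44 (adjusted p = 0.0847) with adults against larvae. Of 6 markers of basophils and eosinophils and of 10 markers of other cells that carry KIT, 0 passed, and likewise 0 of 11 dendritic and Langerhans cell markers and 0 of 7 epidermis genes.

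Of 24 measured genes of signalling below the high-affinity receptor, only LCP2, the adaptor SLP-76 of mast cells, T cells and platelets, was called over the breeds. It fell by 0.41 with larvae against baseline (SE 0.0877, adjusted p = 0.0184), where 1.21% of all features were called. It rose by 0.42 with adults against larvae (adjusted p = 0.0458), where 0.232% were called. The second of these calls was lost without any 1 of 22 arrays. FCER1G, the gamma chain that the high-affinity receptor shares with other Fc receptors, was at 0.70 with adults against larvae (adjusted p = 0.125). Of 14 other Fc and immunoglobulin receptors, 0 passed, with FCGRT, the neonatal Fc receptor, at 0.52 (adjusted p = 0.205) and FCGR2B, the inhibitory IgG receptor, at 0.54 (adjusted p = 0.212) with adults against baseline.

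Of 24 measured genes of the switch to IgE and its cytokines, 0 passed in the comparisons over breeds, with medians of -0.02 for adult minus baseline and -0.04 for larva minus baseline. IL4 differed by 0.03 with adults and -0.05 with larvae against baseline, and IL13 by -0.04 and -0.14. IL13RA1, a receptor chain for IL13, was at 0.43 (adjusted p = 0.214) and NFIL3, a transcription factor of the epsilon switch in mice, at 0.58 (adjusted p = 0.231) with adults. BCL6, a repressor of the switch to IgE in mice, was at -0.46 (adjusted p = 0.175) and ID2 at -0.30 (adjusted p = 0.134) with larvae. Of 9 genes of histamine receptors and breakdown, 0 passed. AOC1, the diamine oxidase that degrades histamine, was at -0.95 with larvae against baseline (adjusted p = 0.0627) and at 0.94 with adults against larvae (adjusted p = 0.125).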

How the data were processed

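The deposited table holds log2 ratios of each sample (Cy5) to a common lymph node pool (Cy3), normalized by the authors with limma, per the submitters' processing notes; for its version and settings, the sources used here say nothing. Base and direction are not written in the file and were taken as log2 of sample over pool. Gene names came from the platform annotation and current RefSeq symbols (30788 of 45220 named), and probes of 1 gene were averaged, which made 28927 features. A linear model with 1 mean per group was fitted to all 27 arrays (limma 3.58.1, R 4.3.3; 18 residual and 3.86 prior degrees of freedom). P-values were two-sided and adjusted by the Benjamini-Hochberg method over all features, with a threshold of 0.05, and the code was tested on simulated data. The SE is that of the fit.

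The members and the 14 gene lists were chosen with earlier results of these data known, and the lists hold 214 entries, of which 170 distinct genes were measured. Named genes were the members, up to 4 called genes of each list by smallest p, or up to 2 as values where 0 passed, and the 5 most like IGHE and CPA3; IL4, IL13, TPSB2, IGHG1, LOC789205, FCER1G, ACTA2, MZB1 and CXCL13 were added after their values were seen. Replicates are called biological in the labels. No genome build was named, so no positions are given. Alternatives were other scalings between arrays, array weights, the replicate number as a block, leaving out arrays, the median of probes, the features tested and the groups fitted.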

Additional observations from a re-analysis of the deposited data

Results flagged for a closer look

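In 4 cases the stage difference of a member went one way on every array of 1 breed and the other way in another, judged against the mean of its baseline or larva arrays; these differences between breeds were not tested. For CPA3, larva minus baseline was -0.53 in Brahman and 0.21 in Holstein-Friesian, apart by -0.74, and 0.08 in Bonsmara, from which Brahman was apart by -0.61. Adult minus baseline of CPA3 was -0.40 in Brahman and 0.27 in Holstein-Friesian, apart by -0.67. Without Brahman baseline replicate 2, the array at 2.80 on probe A, the Brahman differences of CPA3 were -0.08 with larvae and 0.04 with adults. For KIT, adult minus larva was 0.26 in Brahman and -0.06 in Bonsmara, apart by 0.32.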

How the results depend on the processing

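IGHE kept its direction for adult minus baseline and adult minus larva, over breeds and within each, in all settings run. Leaving out each array in turn gave 2.73 to 3.07 for adult minus baseline over breeds and 3.20 to 4.42 for adult minus larva. In Holstein-Friesian the range was -1.21 to 2.45 for larva minus baseline and 0.54 to 4.19 for adult minus larva, the extremes coming from the omission of larva replicate 1 or 3. Without both arrays nearer another breed, these were -1.21 and 4.19. Scaling arrays to one interquartile range gave 7.17 for adult minus larva in Brahman.

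Counts of called related genes depended on the setting. For larva minus baseline over breeds, 12 became 7 with interquartile scaling. For adult minus baseline, 0 became 1 without both arrays and 2 when only the groups compared were fitted, with 0 to 3 on leaving out each array. For adult minus larva, 1 became 3 with interquartile scaling, 5 with quantile normalization, 8 with array weights, 2 without both arrays, 0 with the median of probes and 0 with only the groups compared, with 0 to 8 on leaving out each array. Over the stage comparisons within breeds, 9 became 1 with interquartile scaling, 28 with array weights and 0 with only the groups compared, with 2 to 14 on leaving out each array. Over the breed comparisons, 1 became 0 with interquartile scaling, 0 with quantile normalization, 2 without both arrays and 0 with only the groups compared, with 0 to 8 on leaving out each array. The differences of response between breeds gave 0 to 1. The causes were not tested.

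With the replicate number within breed as a block, the IGHE difference of adult minus baseline was 2.95, the larva minus baseline count 11, the count within breeds 6 and the adult minus larva count 0. Of the 12 genes called for larva minus baseline, 9 were also called under the block, the calls of IgCgamma, JCHAIN and MZB1 were lost, and ACTA2 and AOC1 passed instead. Arrays of the same number in a breed had correlations of their deviations between -0.30 and 0.18 (median 0.042, 7 of 27 over 0.1). Arrays of different numbers ran from -0.191 to 0.277 (median -0.015, 6 of 54 over 0.1). Whether the numbers pair the samples cannot be told from these values. Of 2687 values under alternatives for 88 results, 2604 stayed within the limits set for a change and 83 moved. Member differences made up 2448 of the values and 15 of the moves. The other moves were in other results, among them the counts of called genes. The limit for a member was its residual SD within groups, 1.68 for IGHE, so a value could change sign within it. The pooled number is therefore no measure of stability. Signal over background was not used here.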
